A study of Mus musculus with 10 samples.

Results

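The cytochromes P450 of families Cyp1, Cyp2 and Cyp3 and their electron donor Por were followed in mouse hepatocytes. The set held every protein-coding gene of the count table whose symbol placed it in a lettered subfamily of Cyp1, Cyp2 or Cyp3, plus Por. The rule used names only, no measured value, and took 62 of the 56748 genes in the table. Of these, 43 passed the filter on low counts and were tested, among 14183 genes tested in all.

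RNA from primary hepatocytes of wild-type mice was sequenced after poly-A selection, following overnight exposure of the cells to medium conditioned by cultured adipocytes. In the group Mttp_flox_CM (5 libraries) the medium came from adipocytes of Mttp floxed (Mttpf/f) mice. In the group Mttp_KO_CM (5 libraries) it came from adipocytes of mice lacking Mttp, the microsomal triglyceride transfer protein, in adipose tissue (A-Mttp-/-). Fat donors of both groups were male and had eaten an obesogenic diet for 6 months. The label of every sample gives 3 fat donors. If a group shared these 3, its 5 libraries did not each have a fat donor of their own. The adipocytes of both groups were grown from the inguinal stromal vascular fraction with IBMX, insulin, dexamethasone, indomethacin and rosiglitazone, then kept in insulin medium and in plain serum medium, and were starved overnight before the medium was taken. The deletion was therefore in the medium donors and not in the cells sequenced. The Cre driver of the knockout, and the sex, age, diet and number of the hepatocyte donors, were not given in the sources used here. Whether the 5 libraries in each group stem from different cultures or mice is not stated, so p-values reflect the spread among these libraries alone, which could be technical. The last library of each group carries a column number that no label gives and is called unnumbered here.

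Cytochromes P450 are heme enzymes of the endoplasmic reticulum that insert oxygen into lipophilic molecules, which makes drugs, toxins, steroids and bile acids easier to conjugate and excrete. Each draws its electrons from NADPH through the reductase Por. In liver many of these genes are induced through receptors that sense foreign compounds: AHR for Cyp1a genes, CAR (Nr1i3) for Cyp2b10 and PXR (Nr1i2) for Cyp3a11.

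Total counts per library were 14199798 to 15950530 with floxed medium and 14283517 to 17178131 with knockout medium. Hepatocyte markers were abundant in every library, with 10 genes summing to between 68027 and 71585 CPM (the count relative to the library's total, scaled between libraries by the trimmed mean of M values, TMM) in Mttp_flox_CM and between 56665 and 59024 CPM in Mttp_KO_CM. Of these 10 markers 9 fell and only Apob did not pass the test. Over all genes tested, 18.1% were called lower with knockout medium (edgeR adjusted p under 0.05). Markers of other liver cells were also lower with knockout medium: 12 of 12 endothelial genes fell (summed 2434 to 2593 against 1396 to 1471 CPM), 9 of 11 stellate and fibroblast genes (98.2 to 109 against 54.5 to 61.6 CPM), 11 of 12 macrophage genes (815 to 913 against 623 to 708 CPM) and 2 of 6 cholangiocyte genes (546 to 601 against 305 to 371 CPM). The part of these shifts in the results below was not tested, and in bulk RNA fewer cells of a type and less RNA per cell cannot be told apart. Of 6 adipocyte markers, Lep and Cfd had no count and only Lipe, a lipase also made outside fat, had enough counts to be tested. Lipe rose from 9.49 ± 0.216 to 19.98 ± 1.67 CPM (log2 1.07, edgeR adjusted p 2.7e-11). The macrophage gene that did not fall, Cd68, rose by 0.13 on the log2 scale (adjusted p 0.0054).

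With knockout medium members were called in both directions, at shares close to those over all genes. Of the 43 members tested, 8 were higher and 8 lower at an edgeR adjusted p under 0.05, which is 37.2% of members beside 36.4% of all genes tested. The share higher was 18.6% beside 18.2% of all genes, and the share lower 18.6% beside 18.1%. A change of 1.5-fold or more was called for 7 members, or 16.3%, beside 7.47% of all genes. Libraries of the groups did not overlap for 15 members, or 34.9%, beside 25.7% of all genes. The median log2 difference was 0.06 over members and 0.00 over all genes tested. With libraries scaled by their total counts alone, members counted 8 higher and 10 lower, and the share of all called genes that was higher moved from 50.1% to 38.1%.

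The members called higher were Por, Cyp2a4, Cyp2a5, Cyp2a22, Cyp2b9, Cyp2c40, Cyp2d13 and Cyp2e1. Those called lower were Cyp1a1, Cyp1a2, Cyp2b10, Cyp2c68, Cyp2c70, Cyp3a11, Cyp3a25 and Cyp3a59. In Cyp1a both tested genes were called lower and in Cyp2a 3 of 4 were called higher. In Cyp3a 3 of 7 were called lower, while the other 4 had log2 differences from 0.05 to 0.37 and were not called. Within Cyp2b and Cyp2c, genes of the same cluster were called in opposite directions.

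**Figure D1:**
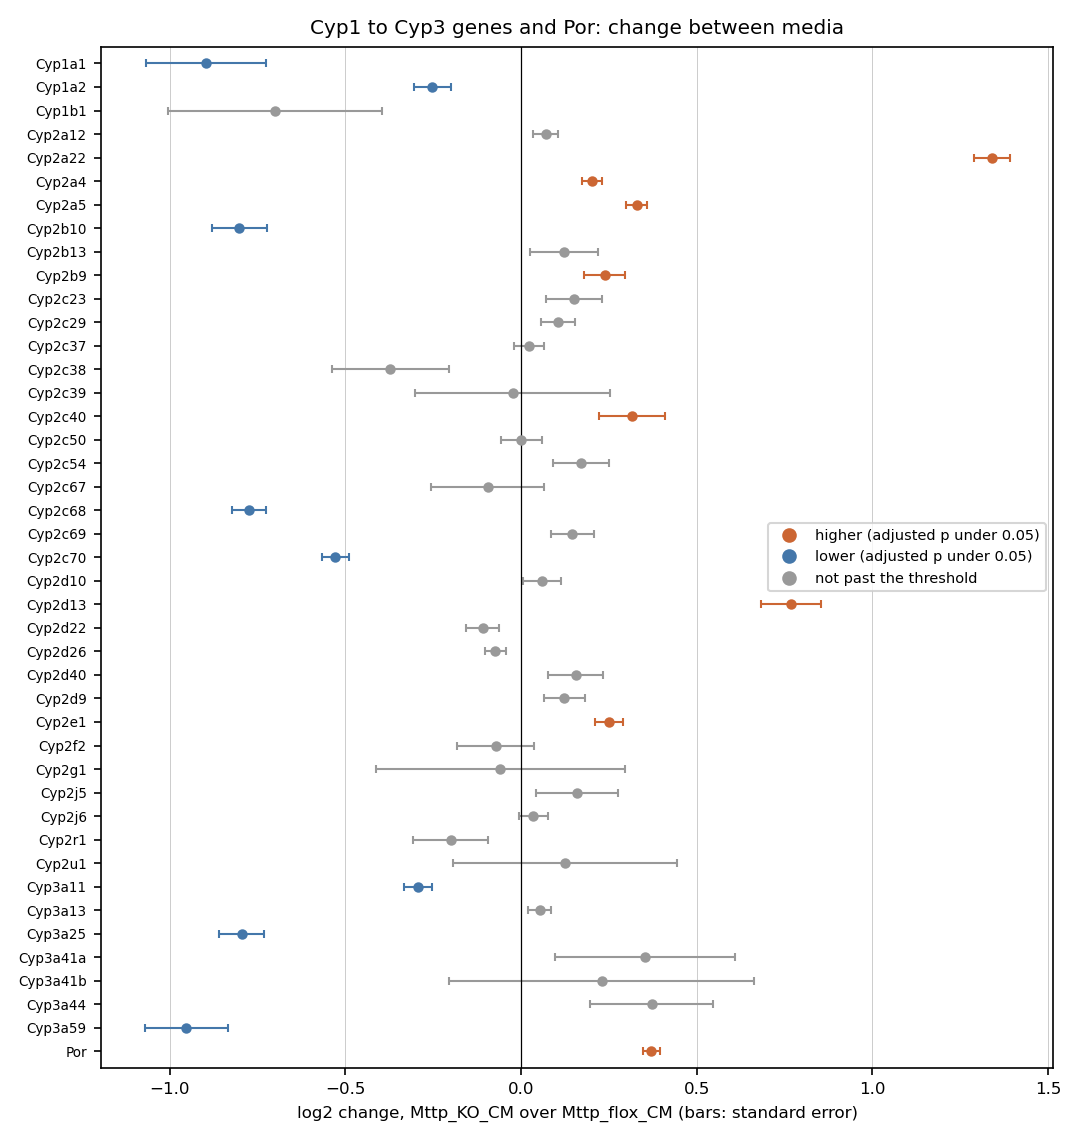
Log2 difference of each tested member, Mttp_KO_CM over Mttp_flox_CM, with its standard error, in orange or blue where called and grey where not. Points to the right of 0 are higher with knockout medium, as for Cyp2a22 at 1.34, and those to the left are lower, as for Cyp3a59 at -0.95.

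Summed over its members, the cytochrome family held nearly the same part of the transcriptome in both groups. The summed level of all cytochromes was 4385 ± 76.9 CPM (SD, n = 5) with floxed medium and 4539 ± 132 CPM with knockout medium, or 0.444% and 0.447% of counts. The make-up within this total differed. Cyp2a genes summed to 2242 ± 52.9 CPM and 2616 ± 108 CPM. Cyp2c genes summed to 477 ± 10.9 CPM and 395 ± 14.9 CPM. Cyp2b genes summed to 385 ± 32.3 CPM and 269.9 ± 18.9 CPM. These sums moved in opposite directions, with Cyp2a above and Cyp2b and Cyp2c below their level with floxed medium. Cyp3a genes summed to 349 ± 11.96 CPM and 305 ± 8.09 CPM, and Cyp1a genes to 40.9 ± 1.32 CPM and 32.8 ± 1.83 CPM. Cyp2d genes, at 646 ± 12.6 CPM and 648 ± 38.2 CPM, and Cyp2j genes, at 86.4 ± 3.61 CPM and 88.7 ± 3.44 CPM, lay within the spread of the libraries. The sums are descriptions and were not tested.

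**Figure D2:**
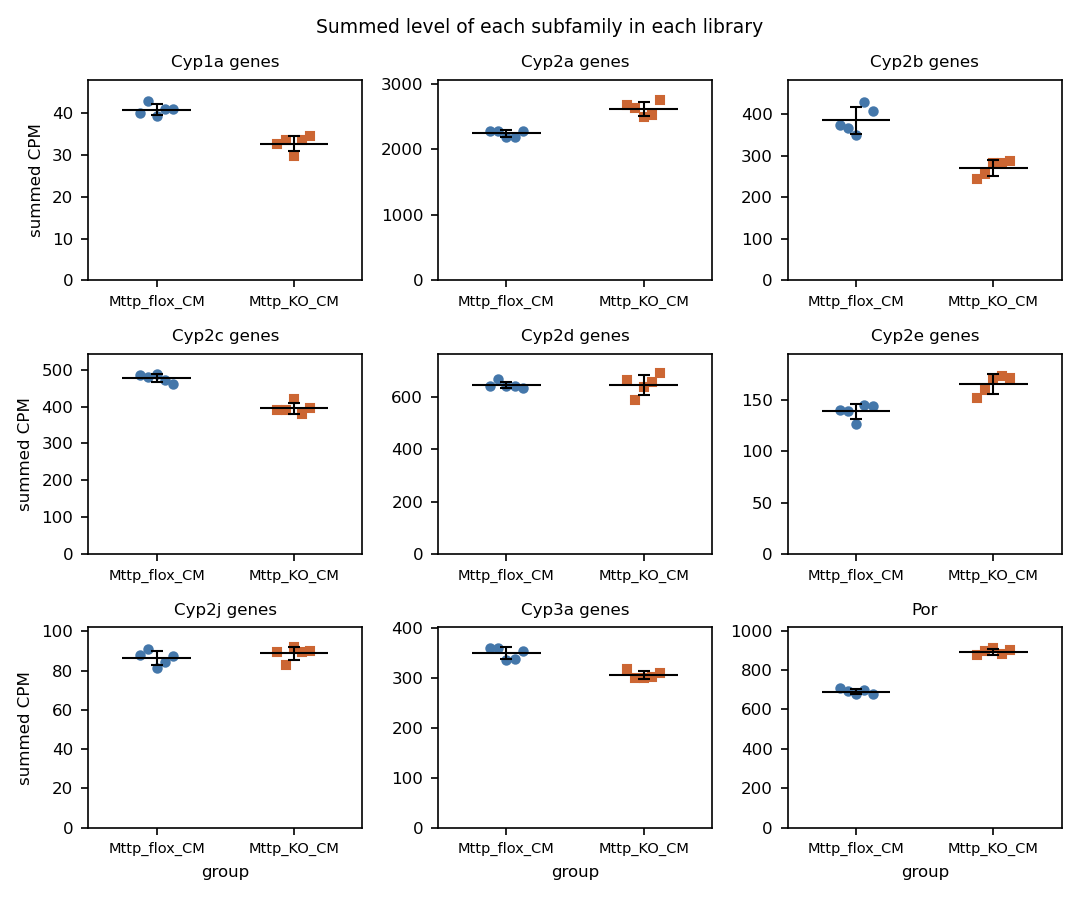
Summed TMM-scaled CPM of each main subfamily, 1 point per library, with the group mean and SD. Cyp2a sums are higher and Cyp1a, Cyp2b, Cyp2c and Cyp3a sums lower with knockout medium, while Cyp2d and Cyp2j sums overlap.

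Levels of different genes were compared per kilobase of the deposited gene length. Cyp2a4 led in both groups, at 894 ± 19.96 CPM per kilobase (SD, n = 5) with floxed and 1029 ± 47.1 with knockout medium. Cyp2a5 came next, at 195 ± 5.66 and 245 ± 10.1 CPM per kilobase. With floxed medium Cyp2d26 (180 ± 4.48), Por (172 ± 3.26), Cyp2b10 (143 ± 17.4) and Cyp2d10 (138 ± 8.39) followed, and Cyp2b10 and Cyp2d10 did not differ beyond their spread. With knockout medium Por (222 ± 3.65) stood above Cyp2d26 (172 ± 7.40), and Cyp2b10 (82.2 ± 12.8) fell below Cyp2d10 (144 ± 15.7). Cyp2b10 was then close to Cyp2a12, at 81.0 ± 3.75 CPM per kilobase. Cyp2a4 alone took 35.4 ± 0.406% of all cytochrome counts with floxed medium and 39.4 ± 1.01% with knockout medium. The deposited gene lengths of Cyp2a22 and Cyp2a12 were 3445 and 3457 bases, against a coding length of 1476 bases for each, and a longer deposited length gives a lower level per kilobase.

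**Figure D3:**
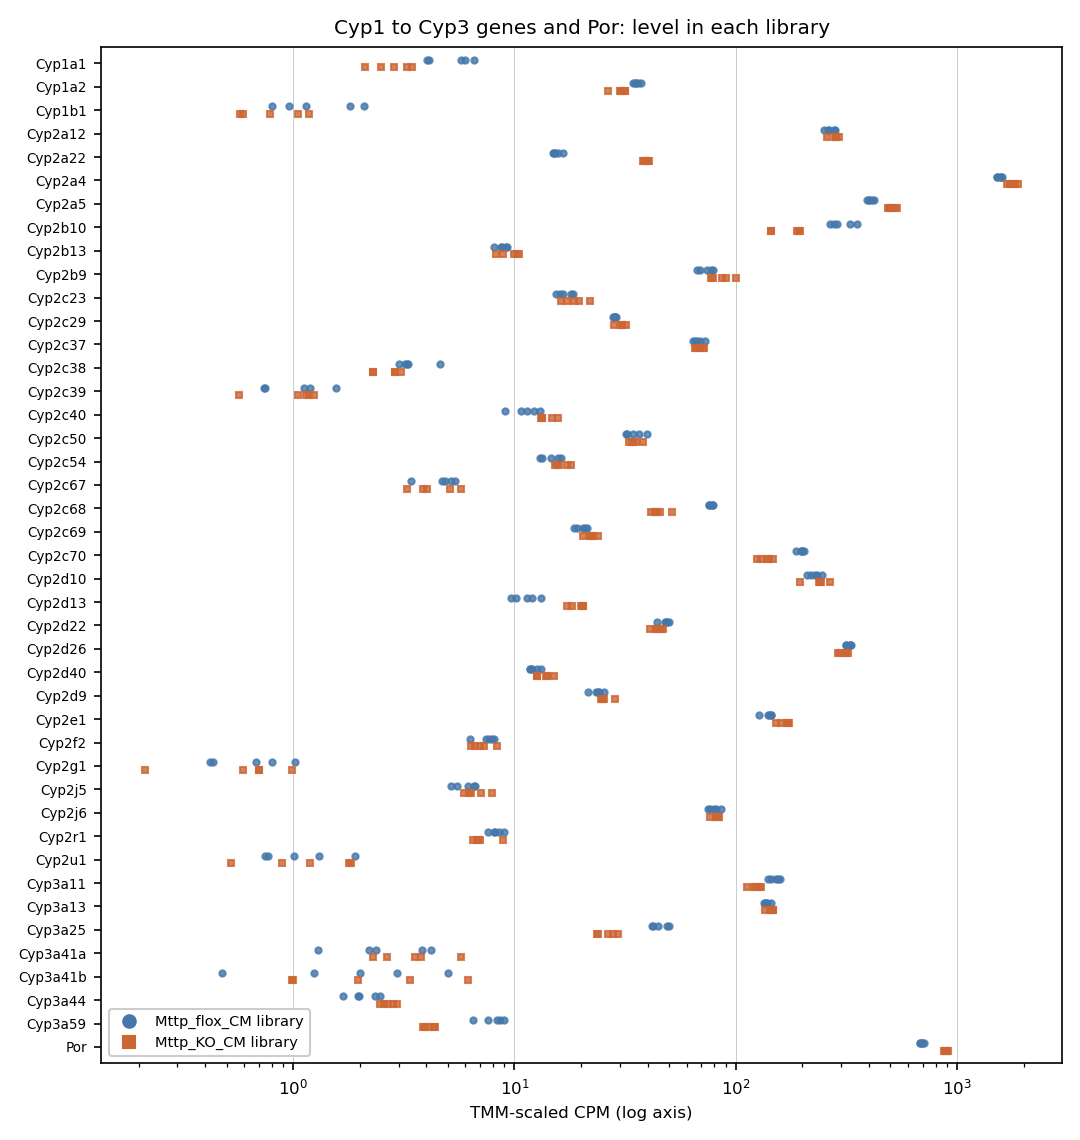
TMM-scaled CPM of the 43 tested members in every library on a log axis, 1 point per library, blue circles for Mttp_flox_CM and orange squares for Mttp_KO_CM. The groups separate for Por, Cyp2a22, Cyp2b10 and Cyp3a25 and overlap for Cyp2b9.

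Por (ENSMUSG00000005514, chr5:135698887-135764180, plus strand, on GRCm39 like all gene positions given) encodes the reductase on which every microsomal cytochrome P450 depends. Its level was 709, 691, 679, 698 and 678 CPM with floxed medium and 878, 896, 912, 879 and 902 CPM with knockout medium. Every library with knockout medium lay above every library with floxed medium, and the gap between the groups was several times the spread within them. Por rose from 691 ± 13.1 to 893 ± 14.7 CPM (SD, n = 5), a log2 difference of 0.37 (SE 0.024, edgeR adjusted p 3.6e-12).

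The Cyp1a enzymes oxidise planar aromatic compounds and are the classical targets of AHR. Cyp1a1 (ENSMUSG00000032315, chr9:57595211-57611107, plus strand) was scarce, at 4.12, 5.76, 4.03, 6.58 and 6.00 CPM with floxed and 2.50, 2.10, 3.25, 3.44 and 2.85 CPM with knockout medium. All libraries with knockout medium were lower, and Cyp1a1 fell by 0.90 in log2 terms (SE 0.17, edgeR adjusted p 1.7e-04). Cyp1a2 (ENSMUSG00000032310, chr9:57584220-57590986, minus strand), the form that liver makes without an inducer, lies next to it and is read in the opposite direction. Its level was 36.1, 37.2, 35.4, 34.4 and 35.0 CPM with floxed and 30.2, 31.4, 26.4, 30.1 and 31.6 CPM with knockout medium. The groups were apart here too, with a smaller difference, and Cyp1a2 fell by 0.25 (SE 0.052, adjusted p 3.8e-04). Cyp1b1, which hydroxylates estrogens and acts mainly outside the liver, was at 1.36 ± 0.559 and 0.837 ± 0.273 CPM and was not called (log2 -0.70, SE 0.30, adjusted p 0.076). Cyp1b1 passed the threshold when the third library with floxed medium was left out (log2 -0.85, adjusted p 0.0355) or the first with knockout medium (log2 -0.86, adjusted p 0.0459).

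All 4 Cyp2a genes were tested; 3 rose and none fell. Cyp2a22 (ENSMUSG00000091867, chr7:26631056-26638809, minus strand) had the largest rise of all members. Its level was 15.3, 16.5, 15.1, 14.96 and 15.7 CPM with floxed and 39.3, 40.3, 38.5, 38.3 and 40.0 CPM with knockout medium. The libraries within each group lay close together and the groups were far apart, a 2.53-fold rise (log2 1.34, SE 0.051, edgeR adjusted p 1.4e-16). Cyp2a5 (ENSMUSG00000005547, chr7:26534730-26542973, plus strand), the mouse coumarin hydroxylase, which also oxidises nicotine, was at 413, 421, 391, 400.2 and 400.5 CPM with floxed and 525, 502, 487, 494 and 536 CPM with knockout medium. Every library with knockout medium was higher, and Cyp2a5 rose by 0.33 on the log2 scale (SE 0.030, adjusted p 2.3e-09). Cyp2a4 (ENSMUSG00000074254, chr7:26006594-26014513, plus strand), a steroid hydroxylase, was at 1576, 1567, 1515, 1520 and 1593 CPM with floxed and 1825, 1804, 1682, 1734 and 1893 CPM with knockout medium. The groups did not overlap, and Cyp2a4 rose by 0.20 (SE 0.028, adjusted p 3.2e-06). Cyp2a12, another steroid hydroxylase, was at 267 ± 12.8 and 280 ± 12.9 CPM and was not called (log2 0.07, adjusted p 0.13). Without the fourth library with knockout medium it passed the threshold (log2 0.10, adjusted p 0.0271).

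The Cyp2a genes are close copies, so reads can be assigned to the wrong one. Cyp2a4 and Cyp2a5 shared 98.4% of their coding bases, and Cyp2a12 and Cyp2a22 shared 97.0%. An identical stretch of 100 coding bases in another gene was found for 13.2% of positions in Cyp2a4, 19.9% in Cyp2a5 and 7.84% in Cyp2a22. How the authors' counting treated reads that match several genes is not given in the sources used here, so the split between close copies is uncertain. The 150 bases before the start of the 3 Cyp2a genes that rose are shown to compare them letter by letter. They are from RefSeq on GRCm38.p6, an earlier build than that of the counts: Cyp2a4 at chr7:26307042-26307191 (plus strand), Cyp2a5 at chr7:26835189-26835338 (plus strand) and Cyp2a22 at chr7:26939387-26939536 (minus strand), each written 5′ to 3′ with the letters TATAAA in capitals.
Cyp2a4: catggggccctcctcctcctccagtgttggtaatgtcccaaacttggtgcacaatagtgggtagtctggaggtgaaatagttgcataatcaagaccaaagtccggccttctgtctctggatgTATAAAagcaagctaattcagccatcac
Cyp2a5: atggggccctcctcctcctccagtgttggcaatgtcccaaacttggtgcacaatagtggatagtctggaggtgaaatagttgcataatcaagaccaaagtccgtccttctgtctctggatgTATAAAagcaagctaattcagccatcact
Cyp2a22: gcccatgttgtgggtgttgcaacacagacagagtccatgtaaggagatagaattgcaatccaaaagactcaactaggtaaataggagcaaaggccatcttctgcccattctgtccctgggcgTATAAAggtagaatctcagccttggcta
Cyp2a4 and Cyp2a5 were 96.7% identical over this window, and Cyp2a4 and Cyp2a22 were 56.5% identical. The letters TATAAA stood on either strand of the 250 bases before the start in 20 of the 37 tested members with a RefSeq promoter, beside 12.3% of 32544 promoters. Of those 20, 4 were called higher, 4 lower and 12 in neither direction.

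In the Cyp2b subfamily the gene known for its response to phenobarbital through CAR fell, and a neighbour rose. Cyp2b10 (ENSMUSG00000030483, chr7:25597045-25626049, plus strand) was at 286, 279, 267, 353 and 329 CPM with floxed and 144, 144, 196, 194 and 190.2 CPM with knockout medium. The lowest library with floxed medium was above the highest with knockout medium, although libraries within each group varied more than for most abundant members. Cyp2b10 fell from 303 ± 36.7 to 174 ± 27.0 CPM (SD, n = 5), by 0.80 in log2 terms (SE 0.079, edgeR adjusted p 1.1e-08). Cyp2b9 (ENSMUSG00000040660, chr7:25872836-25910086, plus strand), which in adult mice is higher in females, was at 79.3, 77.6, 74.3, 66.5 and 69.2 CPM with floxed and 90.5, 100.0, 77.6, 78.6 and 86.4 CPM with knockout medium. These groups overlapped, and Cyp2b9 was the only called member for which they did; it rose by 0.24 (SE 0.059, adjusted p 0.0024). Cyp2b13 was at 8.78 ± 0.473 and 9.57 ± 0.941 CPM and was not called (log2 0.12, adjusted p 0.35). A pseudogene inside Cyp2b13 on the same strand had 19.2% as many counts as Cyp2b13 itself.

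No coding stretch of 100 bases in Cyp2b10 was found in another gene, while Cyp2b9 and Cyp2b13 shared 92.8% of coding bases. The start regions of the 3 genes are shown because Cyp2b10 and Cyp2b9 were called in opposite directions. On GRCm38.p6 (RefSeq, plus strand) they are chr7:25897508-25897657 for Cyp2b10, chr7:26173259-26173408 for Cyp2b9 and chr7:26061345-26061494 for Cyp2b13. Capitals mark GCGTG, the core letters of an AHR response element, and its reverse complement in Cyp2b10, and AGGTCA, the letters of a nuclear receptor binding unit, in the other two.
Cyp2b10: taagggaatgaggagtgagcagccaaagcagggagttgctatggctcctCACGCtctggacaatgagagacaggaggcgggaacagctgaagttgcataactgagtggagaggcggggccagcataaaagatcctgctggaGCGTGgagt
Cyp2b9: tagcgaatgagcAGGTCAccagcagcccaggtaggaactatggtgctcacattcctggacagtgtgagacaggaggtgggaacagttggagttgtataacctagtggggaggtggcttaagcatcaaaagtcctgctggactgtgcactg
Cyp2b13: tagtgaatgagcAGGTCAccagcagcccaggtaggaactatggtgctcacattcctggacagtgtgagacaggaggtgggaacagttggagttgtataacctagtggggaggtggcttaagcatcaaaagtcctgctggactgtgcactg
Cyp2b9 and Cyp2b13 were 99.3% identical over this window, and Cyp2b10 and Cyp2b9 were 74.4% identical. GCGTG stood in the 250 bases before the start, on either strand, in 5 of 37 tested members, beside 28.3% of all promoters. These were Por, called higher, Cyp1a1, Cyp2b10 and Cyp2c68, called lower, and Cyp1b1, not called. AGGTCA stood in 11 of 37, beside 14% of all promoters, with 1 of the 11 called higher, 4 lower and 6 in neither direction. The direct repeat of AGGTCA with 4 bases between, a form that CAR and PXR can bind, stood in none of the 37 windows and in 0.0154% of all promoters. With 1 base between, the repeat stood in none of the 37 and in 0.0338%. Such exact repeats are rare in all promoters, and inexact or more distant sites were not searched. Their absence here therefore says nothing about receptor binding.

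Of 12 Cyp2c genes tested, 2 fell and 1 rose. Cyp2c70 (ENSMUSG00000060613, chr19:40141797-40175777, minus strand) makes muricholic acids, the bile acids that set mice apart from humans. It was at 203, 198, 199, 197 and 186 CPM with floxed and 130.2, 138, 148, 125 and 141 CPM with knockout medium. All libraries with knockout medium were lower, and Cyp2c70 fell by 0.53 in log2 terms (SE 0.038, edgeR adjusted p 4.4e-11). Cyp2c68 (ENSMUSG00000074882, chr19:39677278-39729498, minus strand) was at 75.8, 75.6, 77.8, 79.1 and 78.5 CPM with floxed and 45.4, 41.5, 51.5, 44.3 and 43.1 CPM with knockout medium. The groups were far apart relative to their spread, and Cyp2c68 fell by 0.77 (SE 0.048, adjusted p 2.0e-12). Cyp2c40 (ENSMUSG00000025004, chr19:39755515-39801258, minus strand), an arachidonic acid hydroxylase, was at 9.07, 12.2, 11.3, 10.7 and 13.0 CPM with floxed and 13.3, 13.3, 13.2, 15.8 and 14.8 CPM with knockout medium. The lowest of the latter only just exceeded the highest of the former, and Cyp2c40 rose by 0.32 (SE 0.093, adjusted p 0.0091). At 50.6% of its positions a coding stretch of 100 bases of Cyp2c40 was found in another gene, so this value is uncertain; for Cyp2c68 the share was 22.9% and for Cyp2c70 it was 0.

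The other 9 tested Cyp2c genes passed the test in neither direction. Cyp2c29, a gene induced through CAR and PXR, was at 28.3 ± 0.301 and 30.4 ± 1.34 CPM (log2 0.11, edgeR adjusted p 0.092). It was called higher under 2 of 19 alternatives, among them the fit without the second library with knockout medium (adjusted p 0.0444). Cyp2c37 was at 67.5 ± 3.33 and 68.6 ± 2.73 CPM (log2 0.02). Cyp2c50 was at 35.0 ± 3.20 and 35.0 ± 2.00 CPM (log2 0.00). The log2 differences of the remaining 6 lay between -0.37, for Cyp2c38, and 0.17, for Cyp2c54. Cyp2c69, the close copy of Cyp2c68, was at 20.02 ± 1.13 and 22.2 ± 1.28 CPM (log2 0.15, adjusted p 0.068), although the coding sequences of Cyp2c68 and Cyp2c69 were 96.5% identical. Cyp2c69 was called higher under 2 of 19 alternatives, among them the fit without the fourth library with knockout medium (adjusted p 0.0356).

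The start regions of the Cyp2c genes that were called, of the uncalled Cyp2c69 and of Cyp3a11 are shown because they hold the same letters and yet differ in direction. Capitals mark CAAAGTCCA, the form of site bound by HNF4A. On GRCm38.p6 (RefSeq, all on the minus strand) the windows are chr19:39812815-39812964 for Cyp2c40, chr19:39741102-39741251 for Cyp2c68, chr19:39886770-39886919 for Cyp2c69, chr19:40187287-40187436 for Cyp2c70 and chr5:145879855-145880004 for Cyp3a11.
Cyp2c40: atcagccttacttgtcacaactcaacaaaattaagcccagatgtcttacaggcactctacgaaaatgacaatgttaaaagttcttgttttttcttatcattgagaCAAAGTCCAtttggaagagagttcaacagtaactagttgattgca
Cyp2c68: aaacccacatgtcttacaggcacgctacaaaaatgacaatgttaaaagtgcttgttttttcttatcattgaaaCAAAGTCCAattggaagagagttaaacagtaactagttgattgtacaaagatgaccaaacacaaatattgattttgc
Cyp2c69: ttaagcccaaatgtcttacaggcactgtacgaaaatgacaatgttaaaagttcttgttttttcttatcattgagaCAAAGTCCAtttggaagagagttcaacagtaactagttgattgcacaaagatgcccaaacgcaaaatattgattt
Cyp2c70: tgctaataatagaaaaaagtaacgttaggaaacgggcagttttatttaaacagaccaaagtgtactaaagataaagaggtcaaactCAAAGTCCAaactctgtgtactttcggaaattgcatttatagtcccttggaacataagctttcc
Cyp3a11: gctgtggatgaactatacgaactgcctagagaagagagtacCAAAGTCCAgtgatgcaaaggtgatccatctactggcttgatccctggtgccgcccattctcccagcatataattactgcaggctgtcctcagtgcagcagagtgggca
Over this window Cyp2c68 and Cyp2c69 were 88.3% identical, and Cyp2c68 and Cyp2c70 were 48.8% identical. CAAAGTCCA stood in the 250 bases before the start, on either strand, in 8 of 37 tested members, beside 0.387% of 32544 promoters. Of these 8, Cyp2c40 was called higher, Cyp2c68, Cyp2c70 and Cyp3a11 were called lower, and Cyp2c67, Cyp2c69, Cyp3a41a and Cyp3a41b were not called. Several of the 8 are close copies, so they are not independent. The STAT-type letters TTCNNNGAA and the C/EBP-type letters TTGCGCAA stood in none of the 37 windows, beside 7.04% and 0.166% of all promoters. A match describes the letters in the window and was not tested for binding.

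Among 6 tested Cyp2d genes, 1 rose and none fell. Cyp2d13 (ENSMUSG00000118516, chr15:82520388-82526247, minus strand) was at 10.1, 13.1, 12.03, 9.68 and 11.5 CPM with floxed and 20.4, 17.2, 18.1, 19.9 and 20.4 CPM with knockout medium. The groups were clearly apart, a 1.70-fold rise (log2 0.77, SE 0.085, edgeR adjusted p 8.0e-08). No coding sequence of Cyp2d13 was available for comparison, so stretches shared with other genes were not checked for it. The abundant members of the subfamily were not called. Cyp2d26 was at 323 ± 8.02 and 307 ± 13.3 CPM (log2 -0.07, adjusted p 0.063), but was called lower under 7 of 19 alternatives, with adjusted p down to 0.0045 with library size alone. Cyp2d10 was at 227 ± 13.8 and 237 ± 25.9 CPM (log2 0.06, adjusted p 0.42), and was called higher without the second library with knockout medium (log2 0.12, adjusted p 0.0273). Cyp2d22 was at 47.8 ± 2.31 and 44.3 ± 2.31 CPM (log2 -0.11, adjusted p 0.074), and was called lower under 5 of 19 alternatives, with adjusted p down to 0.0141. Cyp2d9, a steroid hydroxylase that is higher in male mice, was at 23.6 ± 1.42 and 25.7 ± 1.60 CPM (log2 0.12, adjusted p 0.11).

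Cyp2e1 (ENSMUSG00000025479, chr7:140343652-140354900, plus strand) oxidises ethanol, acetone and acetaminophen. It was at 141, 139.6, 127, 145 and 144 CPM with floxed and 152, 159, 171, 174 and 172 CPM with knockout medium. Each library with knockout medium was above each with floxed medium, and Cyp2e1 rose by 0.25 in log2 terms (SE 0.041, edgeR adjusted p 2.5e-05). Of the Cyp2j genes, which oxidise arachidonic acid, Cyp2j6 was at 79.7 ± 4.06 and 81.6 ± 3.26 CPM (log2 0.03) and Cyp2j5 at 6.00 ± 0.648 and 6.70 ± 0.786 CPM (log2 0.16). Neither was called. Nor were the single members of 4 small subfamilies: Cyp2f2, a naphthalene-oxidising enzyme (log2 -0.07), Cyp2g1, an olfactory form (log2 -0.06), Cyp2r1, the vitamin D hydroxylase of liver (log2 -0.20), and Cyp2u1, a fatty acid hydroxylase (log2 0.12). Cyp2r1 passed the threshold without the first library with knockout medium (log2 -0.29, adjusted p 0.0389).

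Of 7 Cyp3a genes tested, 3 fell and none rose. Cyp3a11 (ENSMUSG00000056035, chr5:145791236-145816774, minus strand), the best known target of PXR in mouse liver, was at 158, 153, 140.4, 145 and 155 CPM with floxed and 129.9, 123, 113, 121 and 127 CPM with knockout medium. The groups did not overlap, and Cyp3a11 fell by 0.29 in log2 terms (SE 0.040, edgeR adjusted p 2.0e-06). Cyp3a25 (ENSMUSG00000029630, chr5:145914004-145946428, minus strand) was at 44.6, 48.7, 42.2, 41.7 and 50.03 CPM with floxed and 29.5, 27.9, 23.5, 23.8 and 26.5 CPM with knockout medium. Its groups were further apart, and it fell by 0.79 (SE 0.064, adjusted p 3.2e-10). Cyp3a59 (ENSMUSG00000061292, chr5:146016067-146050097, plus strand), 97.5% identical to Cyp3a25 in coding sequence, was at 9.001, 8.30, 7.63, 6.52 and 8.59 CPM with floxed and 3.88, 4.35, 4.38, 4.08 and 3.92 CPM with knockout medium. It fell by 0.95 (SE 0.12, adjusted p 5.4e-07), and 5.46% of coding positions in each of this pair began a stretch of 100 bases shared with another gene.

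Cyp3a13 was at 138 ± 3.60 and 143 ± 4.80 CPM and was not called (log2 0.05, edgeR adjusted p 0.22). The copies Cyp3a41a and Cyp3a41b, which like Cyp3a44 are higher in female mice, were 99.9% identical and could not be read apart. Summed, they were at 5.12 ± 2.24 and 6.30 ± 1.61 CPM (log2 0.30, SE 0.23, adjusted p 0.339). Cyp3a44 was at 2.09 ± 0.324 and 2.70 ± 0.200 CPM (log2 0.37, SE 0.17, adjusted p 0.10). No call was therefore made for these sex-biased members. Xist stood at 919 to 1086 CPM in all 10 libraries, and 4 Y-linked genes had 0 counts in all of them. This is the pattern of female cells, and no library stood apart in these genes.

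The 19 members that did not pass the filter were scarce in both groups. No count was found in any library for Cyp2c66, Cyp2j7, Cyp2j11, Cyp2j12 and Cyp2w1, which in 152543346 counts allows up to 0.0197 CPM. Between 1 and 9 counts in all 10 libraries together were found for Cyp2c65 (1), Cyp3a57 (2), Cyp2j13 (3), Cyp2j8 (5), Cyp2b19, Cyp2b23, Cyp2d12 and Cyp2d34 (7 each) and Cyp3a16 (9). Cyp2t4 had 39 counts, Cyp2c55 40, Cyp2d11 52, Cyp2s1 56 and Cyp2j9 81. No library held more than 19 counts of any of them. Without the filter 14 of the 19 could be fitted, and 13 of these were not called. Cyp2d11, with 13 counts in all with floxed and 39 with knockout medium, was called higher in that fit (log2 1.51 with SE 0.56, edgeR adjusted p 0.040).

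The receptors that control these genes, and their partners, gave 9 higher, 7 lower and 6 uncalled among 22 tested. Their median log2 difference was 0.03. Over all genes tested, 18.2% were higher and 18.1% lower. Ahr fell from 149 ± 8.32 to 90.7 ± 2.97 CPM (SD, n = 5; log2 -0.72 with SE 0.039, edgeR adjusted p 1.3e-13). Nr1i3, which encodes CAR, was scarce and rose from 3.34 ± 0.703 to 5.24 ± 1.08 CPM (log2 0.65, SE 0.17, adjusted p 0.0030). Nr1i2, which encodes PXR, was at 56.0 ± 2.81 and 54.5 ± 0.952 CPM and was not called (log2 -0.04, adjusted p 0.51). Cyp1a1 and Cyp1a2 thus moved the same way as Ahr, while Cyp2b10 and Nr1i3 moved in opposite directions. Rxra and Rxrb, the shared partners of such receptors, were not called (log2 0.05 and -0.01). Ppara, the fatty acid receptor, rose by 0.33, and Nr1h4, the bile acid receptor, by 0.32. Its target Nr0b2 rose by 0.48. The glucocorticoid receptor Nr3c1 fell by 0.16, and Hnf4a fell by 0.08 on the log2 scale. The call for Hnf4a was lost without the second library with floxed medium (adjusted p 0.0555) or the third with knockout medium (adjusted p 0.0540).

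Other targets of AHR, CAR and PXR were counted from lists outside the family, beside 18.2% of all genes higher and 18.1% lower. Of 7 tested AHR targets outside the family, 3 rose and none fell (median 0.08): Fgf21, a fasting hormone that PPARα also induces, by 0.81, the amino acid transporter Slc7a5 by 0.25 and the quinone reductase Nqo1 by 0.12. Nqo1 lost its call under 12 of 19 alternatives. Tiparp, an AHR target in most cells, was not called (log2 0.02). Of 17 CAR and PXR targets outside the family, 10 rose and 3 fell (median 0.12), with the export pumps Abcc2, Abcb1a and Abcc4 higher by 0.41, 0.34 and 0.33 on the log2 scale. Alas1 and Ephx1, among the 10 that rose, are also counted in the heme and redox partner lists below. The pump Abcc3 was not called (log2 -0.003). The 3 that fell were Gstm1 (-0.15), Sult2a1 (-0.24) and Aldh1a1 (-0.22). Conjugation enzymes went both ways, with Gstm1 and Sult2a1 lower and Ugt2b34 and Sult1e1 higher, by 0.12 and 0.16.

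**Figure D4:**
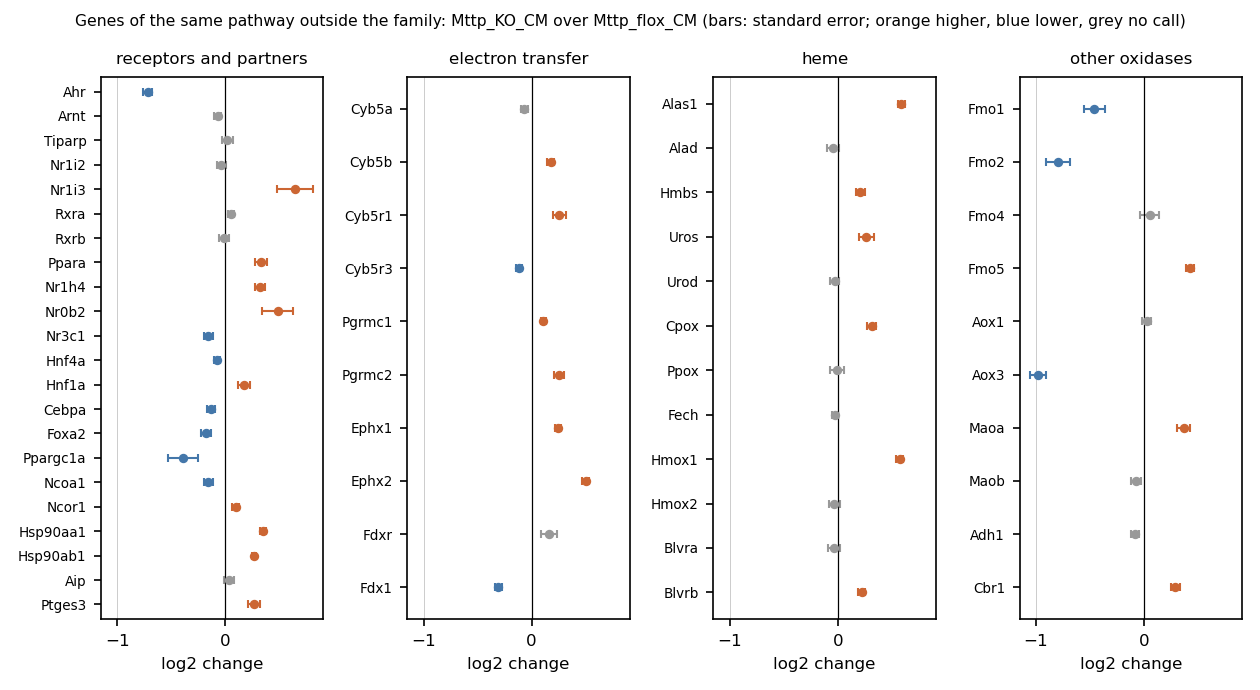
Log2 difference, Mttp_KO_CM over Mttp_flox_CM, with standard error, of every tested gene in the lists of receptors, redox partners, heme genes and other oxidases, in orange where called higher, blue where called lower and grey otherwise. Ahr lies at -0.72 and Aox3 at -0.98, while Alas1 lies at 0.59 and Ephx2 at 0.50.

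Genes that serve the cytochromes were counted by list, beside 18.2% of all genes higher and 18.1% lower. Among 12 genes of heme synthesis and breakdown, 6 rose and none fell (median 0.10). Alas1, the rate-limiting enzyme of heme synthesis, rose from 145 ± 3.81 to 218 ± 9.15 CPM (log2 0.59 with SE 0.033, edgeR adjusted p 2.1e-13). Hmox1, which breaks heme down, rose by 0.57, so genes at both ends of heme turnover were higher. Cpox, a later step of synthesis, rose by 0.31, and Blvrb by 0.22. Of 10 redox and membrane partners, 6 rose and 2 fell (median 0.17). The epoxide hydrolases Ephx2 and Ephx1 rose by 0.50 and 0.24 and the electron carrier Cyb5b by 0.18, while the mitochondrial ferredoxin Fdx1 fell by 0.31 on the log2 scale. Of 10 other oxidases of foreign compounds, 3 rose and 3 fell (median -0.02). Aox3, an aldehyde oxidase, fell from 79.9 ± 4.10 to 40.6 ± 7.15 CPM (log2 -0.98, SE 0.076, adjusted p 1.6e-10). The flavin monooxygenase Fmo2 fell by 0.80 on the log2 scale, while Fmo5 of the same family rose by 0.43.

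Many cytochromes are zoned along the liver lobule, so genes of both zones outside the family were counted. The shares over all genes tested, for these counts and the sex-biased genes below, were 18.2% higher and 18.1% lower. Of 13 tested pericentral genes, 3 rose and 3 fell (median -0.01), with glutamine synthetase Glul higher by 0.35 and Lect2 at -0.61. Of 15 periportal genes, 2 rose and 8 fell (median -0.18), with the urea cycle enzyme Cps1 at -0.58 and the histidine lyase Hal at -0.71. Fbp1 and Pck1, both of gluconeogenesis, were called in opposite directions, at 0.42 and -0.38. Pericentral members of the family were themselves called in both directions, with Cyp2e1 higher and Cyp1a2 lower. Of 11 sex-biased hepatocyte genes outside the family, 1 rose and 4 fell (median -0.11). The riser was Acot3, an acyl-CoA thioesterase that PPARα also induces, at 0.169 ± 0.114 and 21.6 ± 2.88 CPM. The 4 that fell were C6 (log2 -1.15), Mup20 (-0.55), Prom1 (-0.30) and Sult2a1 (-0.24). The list was not divided by the sex in which each gene is higher, so its counts have no sex direction.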

How the data were processed

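Poly-A RNA of primary hepatocytes was sequenced in 10 libraries, 5 per group. The authors deposited raw counts per gene, whole numbers, and FPKM values of the 10 libraries. The submitters' processing notes name HISAT2 2.0.5, featureCounts 1.5.0-p3 and GRCm39. Strand setting, annotation release and treatment of multi-mapping reads were not given in the sources used here, and second strands were made with dTTP, per the labels' protocols, so overlapping genes on opposite strands cannot be told apart. Gene names, lengths and positions are those of the deposited table. Of the 10 columns, 8 matched a labelled library, and 2, 1 per group, carried a number no label gives and were placed by their letter alone. No column of another sample was present (0 unused).

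Counts were tested in R 4.3.3 with edgeR 4.0.16 (filterByExpr, minimum count 10 and total 15, TMM scaling, quasi-likelihood test of Mttp_KO_CM against Mttp_flox_CM), fitted on all genes and adjusted by Benjamini-Hochberg over all 14183 tested. A change was called at an adjusted p under 0.05. SE is that of the log2 difference, and values are given as TMM-scaled CPM. Libraries held 14199798 to 17178131 counts. All 20 within-group pairs differed beyond counting noise (chi-square per degree of freedom 2.04 to 4.07), so none was counted once. Named members were Por, up to 4 per subfamily with the highest count per kilobase and every member changed 1.5-fold or more. Members that did not pass the filter were named as well. So were every listed receptor and up to 4 other genes per list with the smallest p-values. The remaining members and the other list genes named were added after their values were seen. The values of 1 listed gene were left out of every list and are not reported here. The members and lists were chosen with earlier results of these data known.

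Alternatives used other scalings, filters, DESeq2 1.42.0, limma 3.58.1 on log2(FPKM + 1), a replicate block and leaving out libraries. Coding sequences (GENCODE M21, GRCm38) were compared in windows of 100 bases, for 42 of 43 tested members, all but Cyp2d13. RefSeq promoters (GRCm38.p6) matched 53 of 62 members and 37 of 43 tested. The analysis was tested on simulated data.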

Additional observations from a re-analysis of the deposited data

Results flagged for a closer look

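Of 224 groups of 5 libraries checked for 1 library far from the rest, 12 were flagged, beside the roughly 1 in 20 that chance flags. Among members, Cyp2c38 was at 4.59 CPM in the fourth library with floxed medium (others 3.00 to 3.29), and Cyp2c39 at 0.571 CPM in the unnumbered library with knockout medium (others 1.05 to 1.24). Cyp2d9 was at 28.5 CPM in the first library with knockout medium (others 24.7 to 25.4), as was Cyp2r1 at 8.87 CPM (others 6.498 to 6.99). The Cyp2d sum was 668 CPM in the second library with floxed medium (others 636 to 642), and the Cyp2j sum 82.9 CPM in the second with knockout medium (others 89.4 to 91.9).

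Outside the family, Hnf4a was at 735 CPM in the third library with knockout medium (others 782 to 796), and Fmo2 at 9.51 CPM in the second with floxed medium (others 13.9 to 15.1). Mup20, a major urinary protein gene that is higher in male mice, was at 7.39 CPM in the fourth library with floxed medium (others 12.6 to 13.1). With knockout medium, Gsta1 was at 292 CPM in the fourth (others 255 to 261), Fgf21 at 4.70 CPM in the second (others 3.19 to 3.55) and Acta2 at 1.71 CPM in the first (others 1.02 to 1.18). None of the 16 called members was flagged.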

How the results depend on the processing

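All 16 called members kept their direction and call under each of the 19 alternatives. Of 27 uncalled members, 9 gained a call under at least 1 alternative (Cyp1b1, Cyp2a12, Cyp2c29, Cyp2c69, Cyp2d10, Cyp2d22, Cyp2d26, Cyp2r1 and Cyp3a44), and 9 changed sign under at least 1. The median log2 difference of members was 0.06, and it was 0.021 with library size alone and 0.12 without a filter; leaving out each library in turn gave 0.023 to 0.078. Members counted 8 to 10 higher and 8 to 10 lower when a library was left out, and genes 2305 to 2491 higher and 2411 to 2521 lower. Without both unnumbered libraries, a choice made after seeing the data, members counted 8 higher and 8 lower, genes higher in Mttp_KO_CM 2264 and genes lower in Mttp_KO_CM 2307. Numbers did not pair the libraries (correlation of deviations -0.01 to 0.07 over 4 pairs, 2 of 4 correlating best with their own number). With the replicate block, fitted on the same 8 numbered libraries, members counted 8 higher and 8 lower with a median of 0.06, genes higher in Mttp_KO_CM numbered 2326 and genes lower in Mttp_KO_CM 2325. DESeq2 called 8 and 8 members, and limma on FPKM 11 and 8. The 10 libraries limit precision for scarce members such as Cyp1b1, Cyp2g1 and Cyp2u1.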
